A study of Rattus norvegicus with 4 samples.

Results

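Of the 136 gene names in the rat pituitary table that belong to the voltage-gated calcium, voltage-gated sodium, hyperpolarization-activated cyclic nucleotide-gated (HCN) and potassium channel families, 115 had at least 50 unique molecular identifiers (UMIs, each standing for 1 captured RNA molecule) in the kept cells. These 115 channel genes, out of 32883 genes in the table, were chosen by the start of their symbol (Kcn, Hcn, Cacna, Cacnb, Cacng, or Scn followed by a number and a or b) and by that total, so the list holds auxiliary subunits and potassium channels that voltage does not gate. The members just inside the limit were Kcnk15 and Scn4a with 51 UMIs each and Kcnj16 with 55, and the genes just outside it were Cacng3 with 49, Scn10a with 33 and Kcns1 with 27. Their levels were compared between the cell classes of the gland.

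The cells came from female Sprague Dawley rats, 75 days old and at random stages of the estrous cycle, with no treatment and no genetic change. Pituitary glands were dispersed with trypsin and EDTA and loaded on a droplet system that counts transcript ends in single cells. In 1 preparation, 30 glands were dissected, and the pooled anterior lobes and pooled posterior lobes each gave 1 library. In the other, 30 whole glands were pooled into 1 suspension that was split over 2 lanes, so these 2 libraries share their animals. The 2 preparations were the replicates (n = 2), and p-values measure only the spread between these pools, not between animals.

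Voltage-gated sodium and calcium channels carry inward current, and in endocrine cells of the pituitary the calcium that enters during firing drives hormone release. Potassium channels carry outward current that sets the resting potential and ends spikes, and HCN channels pass an inward current on hyperpolarization. In glial cells, potassium channels set the membrane potential and take up potassium, while beta, alpha2delta and gamma subunits, Kcnip, Kcne and Kcnab proteins change the trafficking or gating of the pores.

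After filtering, 20381 barcodes were kept, and 19777 cells remained once 604 predicted doublets were left out. The median of UMIs per kept cell lay between 9741.5 and 10676 in the 4 libraries, and 35 kept barcode sequences occurred in more than 1 library. Cells were clustered without the channel genes, and each class was named from marker genes and is called "-like" for that reason. The table's row for Avpr1b, a corticotroph marker, was at 0 UMIs in the corticotroph-like class. The posterior library stood apart: 45.4% of its barcodes were over the limit on mitochondrial UMIs, against 27.2 to 27.9% in the other 3. CPM are counts per 1000000 UMIs of the sum, scaled as given below, so they are not shares of the UMIs. All 5 non-endocrine classes held RNA of the hormone gene Prl, at 3461 to 74596 CPM, against 781220 and 854149 in the lactotroph-like class. A low level of a member in a class that should lack it was therefore not read as expression. Fewer RNA molecules per cell and fewer expressing cells in a class cannot be told apart in these sums.

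Levels below are UMI sums per class and preparation, in CPM scaled by trimmed mean of M-values (TMM), with the dissected value first and the whole-gland value second. Tests were edgeR's quasi-likelihood test across 15277 genes in 10 classes with Benjamini-Hochberg adjustment. A gene was called when its adjusted p was under 0.05 and its log2 fold change was at least 1 in either direction. Of the 115 members, 99 passed the filter on low counts, and 16 did not and are described by level only. All 99 differed among the 10 classes at an adjusted p under 0.05, as did 95.4% of all genes tested, and the largest adjusted p among them was 0.000929, for Kcnab3.

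The most class-restricted members were spread over 5 cell classes. Of the 43 members at 20 CPM or more in their highest class, 8 were at least 5-fold above the next class: Scn2a in melanotroph-like cells, Cacna1e and Kcnc4 in gonadotroph-like cells, Kcnk9 in thyrotroph-like cells, Scn7a, Kcnj13 and Kcnma1 in pituicyte-like cells, and Kcnk13 in macrophage-like cells. A Schwann-like cluster of 84 cells, too few for the comparisons, was left out of this ranking and had Scn7a at 2260 and 1150 CPM, above the pituicyte-like level. The highest class was the same in both preparations for 81 of the 115 members. The gonadotroph-like class was highest for 17 members, the melanotroph-like class for 15 and the thyrotroph-like class for 12, but only 3 of those 12 were highest there in both preparations. The thyrotroph-like class had 47 and 82 cells, below the limit of 50 in 1 preparation, so it entered a separate fit that was added after the data were seen.

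**Figure D1:**
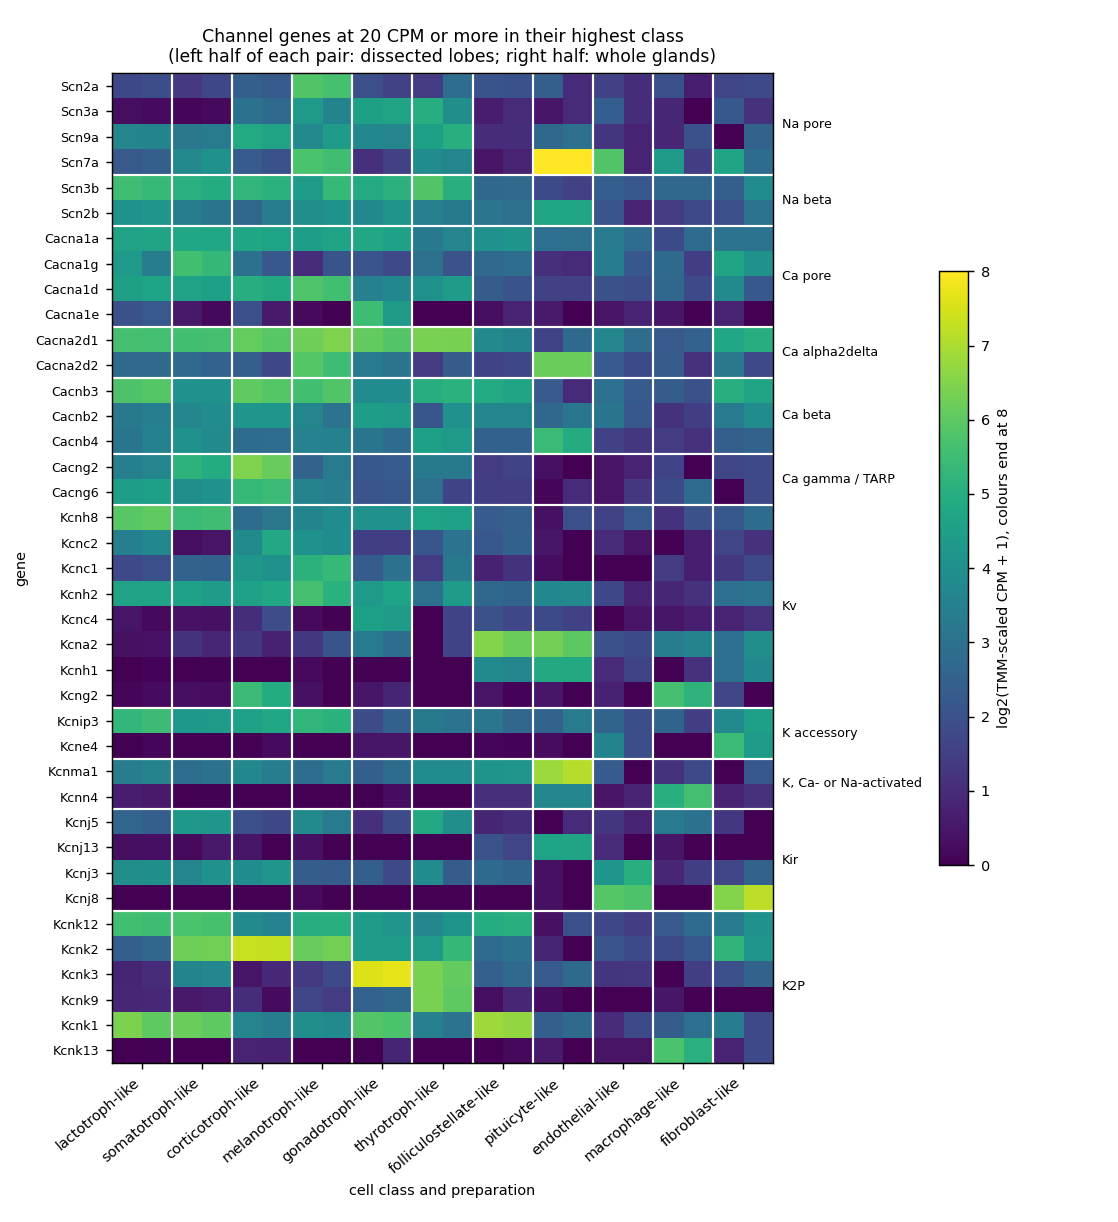
Levels of 39 of the 43 channel genes (rows) that reached 20 CPM or more in their highest class, for each cell class and preparation (columns), with the left column of each pair from dissected lobes and the right from whole glands. Colour gives the TMM-scaled CPM on a log scale, and the columns of a pair look alike for nearly all rows.

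Most tested channel genes had a higher mean log level in the hormone classes than in the non-endocrine classes. Single non-endocrine classes were still the highest for some members. These were 11 in folliculostellate-like, 11 in pituicyte-like, 9 in endothelial-like, 8 in macrophage-like and 6 in fibroblast-like cells. Against the mean log level of 5 non-endocrine classes (folliculostellate-, pituicyte-, endothelial-, macrophage- and fibroblast-like), 64 of the 99 tested members were called in the 5 hormone classes, 55 higher and 9 lower. Over all genes tested, 34.0% were called, 14.0% higher and 19.9% lower. The median log2 fold change was 1.35 over the tested members and -0.04 over all genes. A member at 0 UMIs in both preparations of a class on 1 side could not be called higher on that side by this test, which touched 20 members through a hormone class and 34 through a non-endocrine class, 41 in all. With limma-voom, an alternative added after the data were seen that does not have this limit, 70 members were called, 53 higher and 17 lower. The other edgeR comparisons carry the same limit. Where a class was at 0 UMIs, the counts do not resolve the size of a log2 difference.

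By role, the HCN channels were called higher in hormone cells for 4 of 4 members, and none of the 8 tested calcium channel pores, 3 alpha2delta, 4 beta and 5 gamma subunits was lower while 5, 2, 3 and 3 of them were higher. Among these, Hcn2, Hcn4, Cacna1b, Cacna1i, Cacna2d3 and Cacng8 could not be called lower, since each had a non-endocrine class at 0 UMIs. Of the 7 tested sodium channel pores, 6 were higher and 1 was lower, and among the 26 tested voltage-gated potassium channel alpha subunits 14 were higher and 3 lower. Of the 8 tested tandem-pore potassium channels 5 were higher and 1 lower, and of the 9 tested inward rectifiers 4 were higher. Kcnj2, Kcnj8, Kcnj9, Kcnj11, Kcnj13 and Kcnj15 could not be called lower, as a non-endocrine class was at 0 UMIs for each. The same limit held for members of other roles, among them Scn1a, Kcnc1, Kcnq1, Kcnq3, Kcnk9, Kcnmb2 and Kcnt2. Of the 11 tested accessory subunits 3 were higher and 2 lower, of the 10 calcium- and sodium-activated potassium channels 4 were higher and 1 lower, and of the 4 sodium channel beta subunits 2 were higher and 1 lower. Among 9 members lower in hormone cells were Kcnh1, Kcnn4, Kcna2, Kcnk13, Scn7a and Scn4b.

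**Figure D2:**
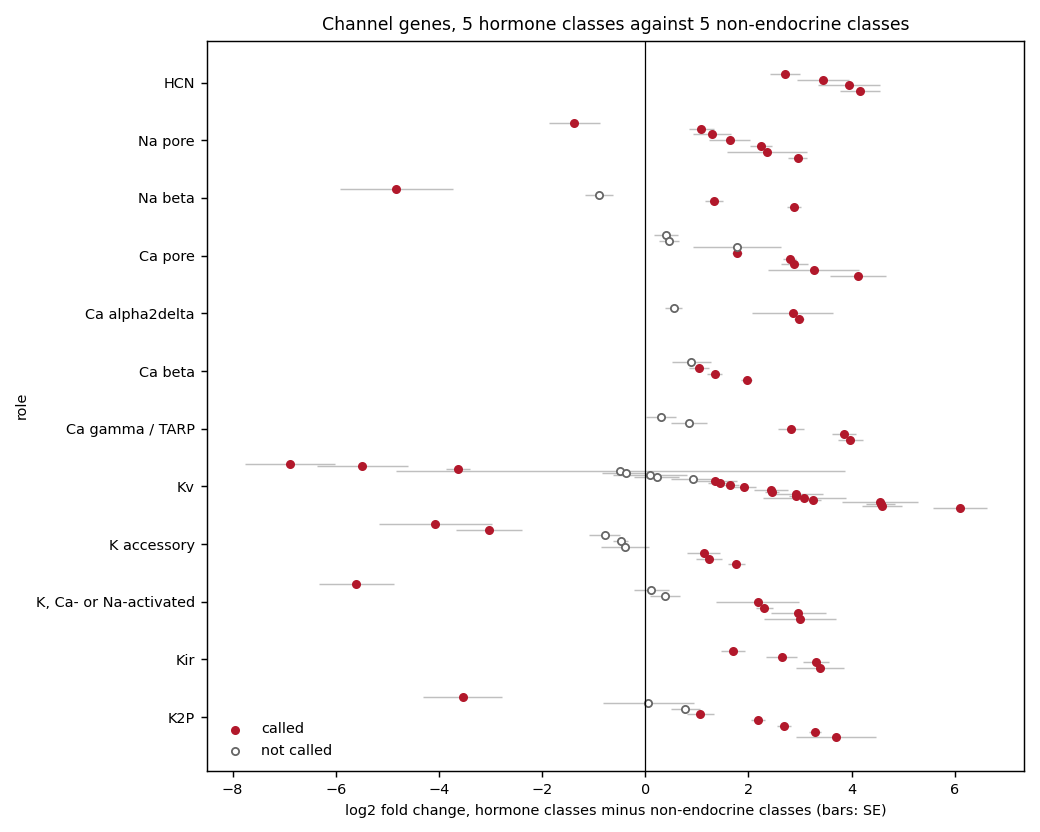
Log2 fold change of each channel gene between the mean of 5 hormone classes and the mean of 5 non-endocrine classes (horizontal axis, bars are standard errors) by role (vertical axis). All 4 HCN channels lie to the right of 0. The 15 members whose standard error was missing, or was 5 or more, are not drawn.

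Scn7a, which encodes the sodium channel Nax, a pore that is not gated by voltage and responds to extracellular sodium, had the widest range of the sodium channel pores. It was at 888 and 922 CPM in pituicyte-like cells (9083 and 949 UMIs), 52.5 and 46.1 in melanotroph-like, 12.7 and 15.7 in somatotroph-like and 0.338 and 0.74 in folliculostellate-like cells. The pituicyte-like values lay over every other class in the fit in both preparations. The log2 difference between pituicyte-like cells and the other non-endocrine classes was 6.92 ± 0.31 (SE, adjusted p = 1.77e-14 by edgeR, n = 2). In endothelial-like cells the 2 preparations did not agree, with 55.8 and 0.701 CPM: the anterior library gave 0, the posterior 77.8 and the whole-gland lanes 0.997 and 0. Macrophage-like cells likewise gave 21.8 CPM in the posterior library and 2.52, 0 and 2.97 in the others, and folliculostellate-like cells gave 7.62 against 0.324, 0.971 and 0.387. The posterior library is also the one that holds most pituicyte-like cells, and the part of free RNA or of the lobe in these values was not tested. Hormone classes were below non-endocrine classes for Scn7a at a log2 difference of -1.37 ± 0.49 (adjusted p = 0.0166 by edgeR), but without the posterior library the value was 0.34 with an adjusted p of 0.310, and with limma-voom it was -1.09 with an adjusted p of 0.0517.

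On the rat RefSeq assembly, Scn7a lies beside Scn9a, which encodes the neuronal channel Nav1.7 and had another pattern. Scn9a was at 28.5 and 24.3 CPM in corticotroph-like and 22.1 and 32.3 in thyrotroph-like cells, and at 5.57 and 6.8 in pituicyte-like cells. Corticotroph-like cells exceeded the other hormone classes for Scn9a by 1.13 ± 0.16 on the log2 scale (adjusted p = 7.1e-06 by edgeR). The 250 bases before each gene's RefSeq start (build GRCr8) are shown because these adjacent members led in different classes. Scn7a is at chr3:71846285-71846534 and Scn9a at chr3:71701378-71701627, both on the minus strand, printed 5′ to 3′ in the gene's direction. Capitals mark matches on either strand to 4 motifs: the nuclear receptor element AGGTCA, the E-box CANNTG, the SOX motif AACAAT and the GATA motif AGATAA.
Scn7a: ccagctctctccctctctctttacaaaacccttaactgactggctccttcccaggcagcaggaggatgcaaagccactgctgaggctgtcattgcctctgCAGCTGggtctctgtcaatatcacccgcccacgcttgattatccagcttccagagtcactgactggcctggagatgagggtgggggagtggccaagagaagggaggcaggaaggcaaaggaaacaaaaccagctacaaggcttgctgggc
Scn9a: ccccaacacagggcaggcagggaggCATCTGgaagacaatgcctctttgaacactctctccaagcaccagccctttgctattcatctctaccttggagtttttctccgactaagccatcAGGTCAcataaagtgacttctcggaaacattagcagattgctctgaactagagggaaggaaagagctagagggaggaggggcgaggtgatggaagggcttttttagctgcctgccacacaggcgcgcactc
The E-box had 1 match in each window and AGGTCA had 1 in Scn9a and 0 in Scn7a, with no overlap between matches, while AACAAT and AGATAA had 0 in both. Of 27457 RefSeq rat promoters of the same length, 65.2% held CANNTG, 13.7% AGGTCA, 10.3% AACAAT and 10.0% AGATAA. Scn7a's window had 2 CG dinucleotides and Scn9a's had 5, against a median of 6 over all promoters. A match describes the letters only, and transcript-end counts do not show which start was used.

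The brain-type sodium channel genes Scn2a (Nav1.2) and Scn3a (Nav1.3), also neighbours on chromosome 3, led in different hormone classes. Scn2a was at 56 and 50.1 CPM in melanotroph-like cells (389 and 62 UMIs) and at or below 6.25 in every other class of the comparison. Melanotroph-like cells exceeded the other hormone classes for Scn2a by 4.27 ± 0.20 on the log2 scale (adjusted p = 1.82e-13 by edgeR, n = 2). Scn3a was at 22.6 and 24.5 CPM in gonadotroph-like, 18.7 and 11.3 in melanotroph-like and 30.6 and 14.6 in thyrotroph-like cells, and under 0.25 in lactotroph- and somatotroph-like cells. The thyrotroph-like values of Scn3a overlap those of the other two classes, the gonadotroph-like values lie above the melanotroph-like ones, and all 3 classes lie above lactotroph- and somatotroph-like cells. The log2 difference for Scn3a in gonadotroph-like cells was 4.09 ± 0.26 (adjusted p = 1.93e-11 by edgeR).

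Other sodium channel pores were lower. Scn1a (Nav1.1) was at 7.21 and 9.56 CPM in corticotroph-like cells and at most 4.86 elsewhere. Scn8a (Nav1.6) was between 4.89 and 11.9 CPM in the 6 hormone classes, and neighbouring classes in that order overlap. Of the beta subunits, Scn3b was at 20.6 to 56.2 CPM over the hormone classes and at 1.94 to 13.4 over the non-endocrine classes, and the groups do not overlap (log2 difference 2.88 ± 0.13, adjusted p = 9.25e-15 by edgeR). Scn2b instead was highest in pituicyte-like cells at 25.1 and 25.3 CPM, and Scn4b was at 4.17 and 5.67 in folliculostellate-like and 3.62 and 4.86 in pituicyte-like cells and at most 0.809 in the others.

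**Figure D3:**
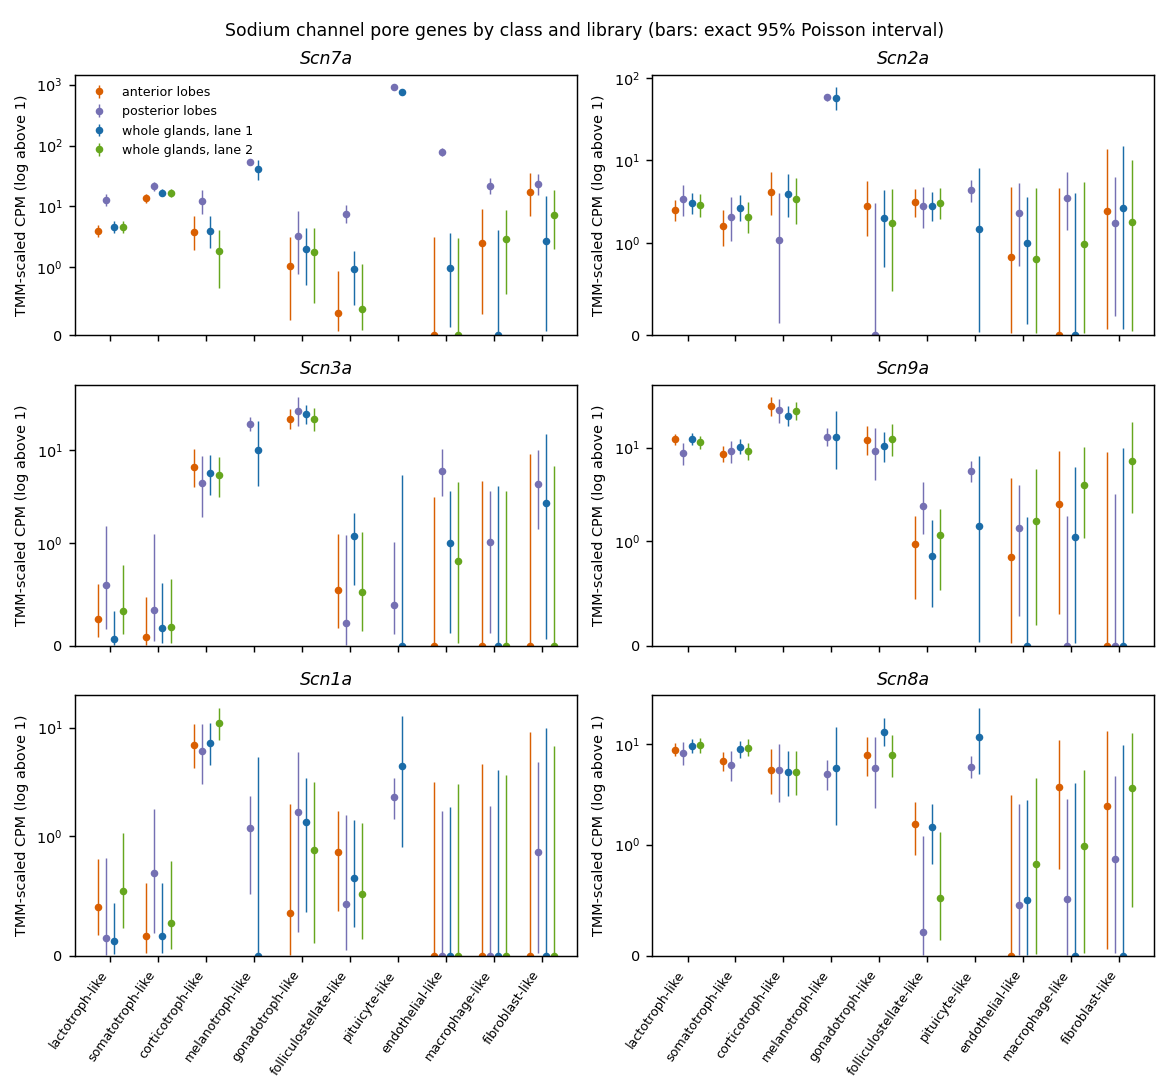
TMM-scaled CPM of selected sodium channel genes by cell class, 1 point per library (vertical axis logarithmic above 1); the thyrotroph-like class is not drawn. Scn7a is highest in pituicyte-like cells, and its endothelial-like point from the posterior library, at 77.8 CPM, lies far above the other 3.

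Among the calcium channel pores, Cacna1d (Cav1.3, an L-type channel that opens at fairly negative potentials) and Cacna1a (Cav2.1, P/Q-type) were present in all hormone classes. Cacna1d was at 54.7 and 46.9 CPM in melanotroph-like cells, 31 and 28 in corticotroph-like and 10.2 and 12.2 in gonadotroph-like cells, the lowest of the hormone classes. Melanotroph-like cells exceeded the other hormone classes for Cacna1d by 1.30 ± 0.13 (log2, adjusted p = 6.31e-08 by edgeR). Cacna1a was at 20.9 to 27 CPM in 5 hormone classes and at 8.51 and 11.5 in thyrotroph-like cells, so those 5 classes are close while the sixth lies below them. Cacna1c (Cav1.2, the other L-type pore) was highest in fibroblast-like cells at 10.9 and 14.6 CPM, with 2.16 to 7.47 over the hormone classes, and did not pass the fold limit between hormone and non-endocrine cells (log2 difference 0.46 ± 0.20, adjusted p = 0.0454 by edgeR).

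Of the T-type and R-type calcium pores, Cacna1g and Cacna1e lay in both preparations of 1 class above every other class. Cacna1g (Cav3.1, T-type, opened by small depolarizations) was at 47.2 and 38.8 CPM in somatotroph-like cells, 18.5 and 9.37 in lactotroph-like and 24.7 and 15.8 in fibroblast-like cells. The somatotroph-like values lay above all other classes, and their log2 difference from the other hormone classes was 3.56 ± 0.17 (adjusted p = 1.87e-13 by edgeR). Cacna1h (Cav3.2) was at 18.7 and 7.29 CPM in thyrotroph-like, 10.8 and 10.3 in somatotroph-like and 8.37 and 10.9 in gonadotroph-like cells, which overlap, and Cacna1i (Cav3.3) was at most 4.13 in any class. Cacna1e (Cav2.3, R-type) was at 44.4 and 18.8 CPM in gonadotroph-like cells and at most 3.73 in the others. The gonadotroph-like level of Cacna1e came from 43.1 CPM in the anterior library against 18.7 and 17.1 in the whole-gland lanes, so the preparations differed over 2-fold although both were above every other class (log2 difference from the other hormone classes 5.48 ± 0.35, adjusted p = 2.2e-11 by edgeR). Cacna1b (Cav2.2, N-type) was at most 6.55 CPM in any class.

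Of the alpha2delta subunits, which carry calcium pores to the membrane, Cacna2d1 was at 46.5 to 87.3 CPM in the hormone classes and at 2.05 to 30.4 in the non-endocrine classes, without overlap (log2 difference 2.98 ± 0.10, adjusted p = 2.17e-17 by edgeR). Cacna2d2 was high in 1 hormone class and 1 glial class, with 58.3 and 44.5 CPM in melanotroph-like cells, 70.4 and 71.9 in pituicyte-like cells and at most 9.1 in the others. Its log2 differences were 3.28 ± 0.14 for melanotroph-like cells against the other hormone classes (adjusted p = 5.01e-14) and 4.43 ± 0.16 for pituicyte-like cells against the other non-endocrine classes (adjusted p = 9.29e-16), both by edgeR. Cacna2d3 was at 9.01 and 7.04 CPM in corticotroph-like cells and at most 3.4 elsewhere.

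Among the cytoplasmic beta subunits, Cacnb3 was at 65.6 and 58.2 CPM in corticotroph-like, 53.1 and 58.1 in lactotroph-like and 47.2 and 55.8 in melanotroph-like cells, and at 15.6 and 16 in somatotroph-like and 13.5 and 13.4 in gonadotroph-like cells. The corticotroph-like values lie just above the others, lactotroph- and melanotroph-like values overlap, and all 3 classes lie over somatotroph- and gonadotroph-like cells. Cacnb4 was highest in pituicyte-like cells at 42.4 and 29.1 CPM, and Cacnb2 was highest in gonadotroph-like cells at 21.1 and 19.8. Of the gamma family, Cacng2, known as stargazin and as an auxiliary subunit of AMPA-type glutamate receptors, was at 86.1 and 69.3 CPM in corticotroph-like and 35.2 and 29 in somatotroph-like cells, and at 4.89 and 8.9 in melanotroph-like cells. Cacng6 was also highest in corticotroph-like cells, at 40 and 43.3 CPM. Its chromosome 1 neighbour Cacng8 was at 16.7 and 21.4 CPM in pituicyte-like cells but had no UMI in folliculostellate-like cells of either preparation, which is at least 143-fold lower when 3 counts over the group are taken as the floor. Cacng7 was at 9.35 and 10.5 CPM in melanotroph-like and 6.65 and 10.7 in pituicyte-like cells, which overlap, and Cacng4 was highest in folliculostellate-like cells at 10.7 and 10.6 CPM.

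The HCN channels were at low levels and differed between hormone classes. Hcn4, the main pacemaker isoform of the heart, was at 18.7 and 8.33 CPM in thyrotroph-like, 13.3 and 11.9 in corticotroph-like and 6.28 and 6.01 in somatotroph-like cells, and at most 0.239 in lactotroph-like cells. Thyrotroph- and corticotroph-like values of Hcn4 overlap, and both lay above lactotroph-like cells. Hcn2 and Hcn3 were at most 9.48 CPM in any class, and their hormone to non-endocrine log2 differences were 4.16 ± 0.39 and 2.71 ± 0.30 (adjusted p = 3.58e-09 and 3.59e-08 by edgeR). For Hcn2 a non-endocrine class was at 0 UMIs, so the counts do not resolve the size of its difference.

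Among the voltage-gated potassium channel alpha subunits, silent subunits, which do not conduct on their own, and the ether-à-go-go group differed between classes. Kcng2, which alters other Kv subunits, was at 42.9 and 29.5 CPM in corticotroph-like cells and at 48.9 and 36.1 in macrophage-like cells, and at most 2.18 in the others. The 2 classes overlap in Kcng2 and lie over every other class. Kcns2, another silent subunit, was at 10.9 and 10.5 CPM in gonadotroph-like cells and at most 4.35 elsewhere (log2 difference from the other hormone classes 8.75 ± 0.64, adjusted p = 2.12e-09 by edgeR). Another hormone class had 0 UMIs of Kcns2 in both preparations, so the counts do not resolve the size of that difference. Kcnh1 (Eag1) was at 27.4 and 28.2 CPM in pituicyte-like, 12.8 and 11.3 in folliculostellate-like and 6.53 and 12.2 in fibroblast-like cells. In all 5 hormone classes together Kcnh1 had 4 UMIs, against 637 in the non-endocrine classes, and their log2 difference was -6.89 ± 0.88 (adjusted p = 6.9e-07 by edgeR). With a hormone class at 0 UMIs, the size of this difference is not resolved either.

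The Erg channels of the same group, Kcnh2, Kcnh6 and Kcnh7, which carry a current known to restrain firing in lactotrophs, had their highest mean levels in melanotroph-like cells. Kcnh2 was at 48.6 and 33.2 CPM there and between 19.3 and 26.8 in lactotroph-, somatotroph-, corticotroph- and gonadotroph-like cells, with no overlap, but its log2 difference of 0.91 ± 0.14 was under the fold limit (adjusted p = 1.84e-05 by edgeR). Kcnh6 was at 15.2 and 15.4 CPM in melanotroph-like and 10.6 and 14.8 in gonadotroph-like cells, and at most 5.21 elsewhere. Kcnh7 was at 6.9 and 12.1 CPM in melanotroph-like and 3.4 and 9.37 in thyrotroph-like cells, which overlap. Kcnh8, of the Elk group, instead was at 59.8 and 65.8 CPM in lactotroph-like and 43 and 45.5 in somatotroph-like cells, and at most 23.8 in the others (lactotroph-like log2 difference 2.06 ± 0.10, adjusted p = 6.07e-14 by edgeR).

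Of the Kv3 group, Kcnc1 (Kv3.1) was at 34.2 and 39.6 CPM in melanotroph-like and 17.7 and 15.9 in corticotroph-like cells, and at most 8.33 in the others. The log2 difference between hormone and non-endocrine classes was 4.57 ± 0.28 for Kcnc1 (adjusted p = 2.88e-12 by edgeR). A non-endocrine class had 0 UMIs of Kcnc1, so the counts do not resolve the size of that difference. Kcnc4 (Kv3.4) was at 22.2 and 19.8 CPM in gonadotroph-like cells and at most 2.93 elsewhere, a log2 difference of 5.67 ± 0.28 from the other hormone classes (adjusted p = 2.82e-13 by edgeR).

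Kcna2 (Kv1.2) was highest in the glial classes. It was at 91.1 and 72.9 CPM in folliculostellate-like and 80.2 and 62.2 in pituicyte-like cells, and at most 14.6 in the other classes. The glial values overlap one another and lie above all others. Hormone classes were lower for Kcna2 by a log2 difference of -3.63 ± 0.23 (adjusted p = 2.98e-12 by edgeR), and its neighbour Kcna3 (Kv1.3, a channel of immune cells) was at 9.94 and 10.1 CPM in macrophage-like and 7.92 and 4.56 in endothelial-like cells. Kcnd3 (Kv4.3), which carries A-type current, was at 19.1 and 19.2 CPM in lactotroph-like and 19.5 and 16.8 in folliculostellate-like cells. Kcnq1 was at 16.5 and 20.3 CPM in endothelial-like cells and at most 1.62 in the others, and Kcnq3 was at 13.9 and 11.2 in folliculostellate-like cells and at most 1.22 in the others.

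Among the accessory subunits, Kcnip3, a calcium sensor that binds Kv4 channels, was at 38.4 and 43.9 CPM in lactotroph-like and 37.1 and 33.2 in melanotroph-like cells and at 2.55 and 4.54 in gonadotroph-like cells. Kcnip4, of the same family, was highest in folliculostellate-like cells at 16.3 and 19.5 CPM. Kcne4, a small membrane subunit that reduces several Kv currents, was at 42.8 and 19.5 CPM in fibroblast-like and 11.2 and 2.8 in endothelial-like cells, and at most 0.395 in the others, although its preparations differed over 2-fold. Kcnrg, which regulates Kv assembly, varied least among these and was highest in endothelial-like cells at 13.5 and 12.6 CPM and in macrophage-like cells at 13.3 and 11.2.

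Among the calcium-activated potassium channels, Kcnma1, the large-conductance (BK) pore, was at 110 and 136 CPM in pituicyte-like cells, 16.8 and 17.2 in folliculostellate-like cells and at most 13.6 in the other classes. The pituicyte-like values lay above all others, and their log2 difference from the other non-endocrine classes was 5.36 ± 0.22 (adjusted p = 3.99e-15 by edgeR). Of the BK beta subunits, Kcnmb2, which inactivates the channel, was at 12.2 and 7.28 CPM in melanotroph-like cells, Kcnmb4 at 13.8 and 15.8 in gonadotroph-like and 8.65 and 7.04 in corticotroph-like cells, and Kcnmb1, the smooth-muscle subunit, at 8.7 and 14.6 in fibroblast-like and 5.28 and 2.8 in endothelial-like cells. Kcnn4, the intermediate-conductance channel of blood cells, was at 32.3 and 47.3 CPM in macrophage-like and 11.6 and 11.7 in pituicyte-like cells, and at most 1.22 in the others. Of the small-conductance channels, Kcnn2 was at 15.5 and 18.6 CPM in lactotroph-like and 15.6 and 16.6 in somatotroph-like cells, which overlap, and Kcnn3 at 12.4 and 18.6 in melanotroph-like and 15.3 and 10.4 in thyrotroph-like cells, which also overlap. Kcnt2, a sodium-activated channel, was at 13 and 12.6 CPM in somatotroph-like cells.

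Among the inward rectifiers, Kcnj8 (Kir6.1), the pore of the vascular ATP-sensitive channel, was at 90.7 and 146 CPM in fibroblast-like and 57.8 and 54 in endothelial-like cells, and had at most 0.293 in any other class. Its receptor subunit and chromosome 4 neighbour Abcc9 was at 102 and 149 CPM in fibroblast-like and 93.7 and 29.5 in endothelial-like cells, and at most 0.592 in any other class of the comparison. Both genes are known from pericytes, and 2 of 6 listed pericyte markers were high in the same classes. Rgs5 was at 1661 and 2856 CPM in the fibroblast-like class and 1375 and 754 in the endothelial-like class, and Pdgfrb at 268 and 396 and at 90.8 and 44.9. The list as a whole did not follow Kcnj8. Its 6 markers summed to 2520 and 5082 CPM in fibroblast-like and 1573 and 1092 in endothelial-like cells, but also to 925 and 897 in folliculostellate-like cells, where Kcnj8 had no UMI. The part of pericytes in the fibroblast- and endothelial-like classes was not tested. The other ATP-sensitive pore, Kcnj11 (Kir6.2), known from insulin-secreting cells, was at 5.96 and 5.6 CPM in somatotroph-like cells and at most 4.17 elsewhere (log2 difference from the other hormone classes 4.29 ± 0.36, adjusted p = 9.36e-09 by edgeR). Another hormone class had 0 UMIs of Kcnj11, so the counts do not resolve the size of that difference. The partner and chromosome 1 neighbour of Kcnj11, Abcc8, was at 86.4 and 88.5 CPM in somatotroph-like cells and 47.6 and 30.2 in thyrotroph-like cells.

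Kcnj13 (Kir7.1) was at 24 and 24.3 CPM in pituicyte-like cells, 3.16 and 2.22 in folliculostellate-like cells and at most 0.99 in the others. Kcnj15 (Kir4.2) was at 17.2 and 15.1 CPM in endothelial-like cells and at most 0.789 in the others, and Kcnj2 (Kir2.1) was at 20.3 and 17.8 in macrophage-like cells and at most 8.51 elsewhere. The G-protein-gated members Kcnj3, Kcnj5, Kcnj6 and Kcnj9, which transmitters such as dopamine and somatostatin open through their receptors, were called higher in hormone cells, but different ones led in each class. Kcnj6 was at 15 and 17.7 CPM in lactotroph-like, 18 and 20.8 in somatotroph-like and 18.7 and 18.7 in thyrotroph-like cells, and at most 4.85 in the other hormone classes. Kcnj5 was at 18.4 and 17.7 CPM in somatotroph-like cells and 27.2 and 14.6 in thyrotroph-like cells, and Kcnj9 was highest in corticotroph-like cells at 11.5 and 10.6. Kcnj3 was at 11.6 to 17.1 CPM in lactotroph-, somatotroph- and corticotroph-like cells and at 17.2 and 31.6 in endothelial-like cells. Kcnj10 (Kir4.1) and Kcnj16 (Kir5.1), potassium channels of many glial cells, were at most 1.58 and 0.987 CPM in folliculostellate-like and at most 0.293 and 0 in pituicyte-like cells, and neither passed the filter.

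The tandem-pore potassium channels, which carry background current, differed between hormone classes at levels above 50 CPM. Kcnk3 (TASK-1) was at 191 and 208 CPM in gonadotroph-like and 83.4 and 66.6 in thyrotroph-like cells, 11.2 and 12.1 in somatotroph-like cells and at most 5.86 in the others. The gonadotroph-like values lay above every other class, and their log2 difference from the other hormone classes was 6.64 ± 0.11 (adjusted p = 8.91e-22 by edgeR). Its relative Kcnk9 (TASK-3) was at 83.4 and 63.5 CPM in thyrotroph-like cells (49 and 61 UMIs) and at most 5.53 elsewhere, a log2 difference of 5.79 ± 0.29 in the added fit (adjusted p = 6.67e-12 by edgeR).

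Kcnk2 (TREK-1), gated by stretch, lipids and receptors, was at 160 and 156 CPM in corticotroph-like cells, 74.1 and 77.5 in somatotroph-like, 69 and 77.6 in melanotroph-like and 4.29 and 5.22 in lactotroph-like cells. The corticotroph-like values lay over all others (log2 difference 2.51 ± 0.10, adjusted p = 3.18e-15 by edgeR), somatotroph- and melanotroph-like values overlap, and lactotroph-like values were the lowest of the hormone classes (-3.66 ± 0.13, adjusted p = 5.6e-16). Kcnk1 (TWIK-1) was at 112 and 103 CPM in folliculostellate-like, 84.7 and 63 in lactotroph-like, 71.7 and 63.4 in somatotroph-like and 57.1 and 52.2 in gonadotroph-like cells, and at most 14.4 in the other classes. Kcnk12 (THIK-2), which gives little current on its own, was highest in somatotroph-like cells at 52.8 and 50.1 CPM. Kcnk13 (THIK-1), the background channel of microglia, was at 52.2 and 32.5 CPM in macrophage-like cells and at most 2.44 elsewhere.

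Each hormone class was also compared with the mean log level of the other hormone classes, and the sets of called members differed but overlapped. Kcnh8 and Kcnk1 were higher in both lactotroph- and somatotroph-like cells, and Cacng2 and Kcnk2 in both corticotroph- and somatotroph-like cells. Kcnc1 was higher in corticotroph- and melanotroph-like cells, Kcnk3 in gonadotroph- and thyrotroph-like cells, and Scn3a in melanotroph-, gonadotroph- and thyrotroph-like cells. In lactotroph-like cells 44 of 99 members were called, 23 higher and 21 lower, where 17.4% of all genes were called, 9.94% higher and 7.48% lower. Kcnh8, Kcnk1 (1.51 ± 0.09 log2), Kcnip3 (1.44 ± 0.12) and Cacnb3 were the higher members that reached 20 CPM, and Scn3a, Kcnk2, Kcnk3, Kcng2, Kcnc1 and Scn2a headed the lower ones. In somatotroph-like cells 46 were called, 20 higher and 26 lower, where 16.3% of all genes were called, 8.44% higher and 7.85% lower. Cacna1g led the higher members, followed by Cacng2, Kcnh8, Kcnk1, Kcnk2 and Kcnk12, and Scn3a was among the lower ones.

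In corticotroph-like cells 36 members were called, 24 higher and 12 lower, where 14.2% of all genes were called, 7.32% higher and 6.89% lower. Kcng2 led (6.93 ± 0.26 log2, adjusted p = 2.27e-15 by edgeR), followed by Cacng2 (2.99 ± 0.14), Kcnk2, Cacng6, Kcnc1 and Scn9a, and Kcnk3, Kcnk1, Kcnh8, Cacna2d2 and Kcnk12 were lower. In melanotroph-like cells 38 were called, 27 higher and 11 lower, where 15.6% of all genes were called, 9.78% higher and 5.87% lower, with Scn2a, Scn7a, Scn3a, Cacna2d2, Kcnc1 and Cacna1d first among the higher ones. In gonadotroph-like cells 45 were called, 25 higher and 20 lower, where 14.6% of all genes were called, 8.85% higher and 5.75% lower, with Kcnk3 and Scn3a among the higher ones that reached 20 CPM and Kcnip3, Scn7a, Cacng6, Cacng2, Cacnb3 and Cacna1g lower, of which Scn7a lost its call with limma-voom (adjusted p = 0.119). In thyrotroph-like cells 21 of 97 tested members were called in the added fit, 14 higher and 7 lower, where 6.19% of all genes were called, 3.93% higher and 2.26% lower, and Kcnk9, Kcnk3 and Scn3a were the higher ones that reached 20 CPM.

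Melanotrophs and corticotrophs both process proopiomelanocortin, and 34 of 99 members differed between the 2 classes, 20 higher and 14 lower in melanotroph-like cells, where 14.5% of all genes were called, 8.46% higher and 6.01% lower. Cacna2d2 (4.09 ± 0.24 log2), Scn7a (3.78 ± 0.72) and Scn2a (3.70 ± 0.30) were the higher members with the largest differences at 20 CPM or more (adjusted p = 3.02e-11, 0.000383 and 4.16e-09 by edgeR). Kcng2 had 2 UMIs in melanotroph-like and 295 in corticotroph-like cells, a pooled level 138 times higher in the latter (counting interval 37.9 to 1147). Cacng2, Cacng6 and Kcnk2 were also lower in melanotroph-like cells. Cacna1d and Kcnh2 were under the fold limit in this comparison (0.83 ± 0.17 and 0.81 ± 0.18 log2), and 9 members were called when the anterior library was left out and 19 when the posterior one was.

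Folliculostellate-like cells, the S100b-expressing network of the anterior lobe, were called for 42 of 99 members against the other non-endocrine classes, 35 higher and 7 lower, where 25.7% of all genes were called, 16.5% higher and 9.18% lower. With limma-voom, 26 were higher and 11 lower. Kcnk1 (4.79 ± 0.14 log2), Kcnk12 (3.52 ± 0.18) and Kcna2 (2.84 ± 0.13) led the higher members at 20 CPM or more (adjusted p = 2.87e-17, 3.27e-13 and 6.47e-14 by edgeR). The class level of Kcnk1 hides a split between clusters, with 220 CPM in a cluster of 538 cells and 18.9 in a cluster of 1406. Among the voltage-gated potassium channel alpha subunits 12 of 26 were higher and 1 was lower. Lactotroph-like cells also had Kcnk1 and Kcnk12, and Prl was at 36042.5 and 29007 CPM in the folliculostellate-like class; the part of lactotroph RNA in these members' values was not tested.

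Pituicyte-like cells, glia among the axon endings of the neural lobe, had 54 of 99 members called against the other non-endocrine classes, 32 higher and 22 lower, where 33.6% of all genes were called, 16.6% higher and 17.0% lower. Of the 7 tested sodium channel pores 5 were higher and none was lower, and of the 10 calcium- and sodium-activated potassium channels 6 were higher and none lower. Scn1a and several of these potassium channels, among them Kcnmb1, Kcnmb2, Kcnmb4 and Kcnt2, could not be called lower. Each had another non-endocrine class at 0 UMIs in both preparations. Pituicyte-like cells had the highest mitochondrial share, with cluster medians of 14.3 and 14.9%, against 10.8 to 11.7% in folliculostellate-like clusters. With at most 10% mitochondrial UMIs, the whole-gland sum fell out and 17 members were called. The part of the mitochondrial share was not tested.

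Between the glial classes themselves, 53 of 99 members differed, 31 higher and 22 lower in folliculostellate-like cells, where 29.3% of all genes were called, 17.1% higher and 12.2% lower. Folliculostellate-like cells had more Kcnk12 (5.77 ± 0.34 log2), Kcnk1 (4.60 ± 0.20) and Cacnb3 (2.82 ± 0.23), with adjusted p of 2.87e-12, 1.69e-14 and 6.65e-10 by edgeR. Pituicyte-like cells had more Scn7a (-10.47 ± 0.58), Cacna2d2, Kcnj13, Cacnb4 and Kcnma1. Of the 7 tested sodium channel pores 5 were lower in folliculostellate-like cells (among them Scn1a, Scn7a, Scn8a and Scn9a) and none was higher. Kcnq3 had 304 UMIs in folliculostellate-like and 1 in pituicyte-like cells, a pooled ratio of 136.4 (counting interval 24.3 to 5405).

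Kcna2 was not called between the glial classes, with a log2 difference of 0.15 ± 0.13 (adjusted p = 0.373 by edgeR), and Kcnh1 was lower in folliculostellate-like cells by -1.25 ± 0.25 (adjusted p = 0.000372). In the dissected preparation the 2 classes came from different libraries, while in the whole glands they came from the same suspension, with 1678 and 97 cells, and the whole-gland values of the members above have the same direction. Immediate early genes moved with this comparison: 12 of 12 were higher in folliculostellate-like cells, with a median log2 difference of 5.0, and Fos was at 9733 and 9677 CPM there and 532 and 269 in pituicyte-like cells. The part of the response to dissociation or of the mitochondrial share in the channel differences was not tested. Without the anterior library 32 members were called, without the posterior library 27, and with at most 10% mitochondrial UMIs 22.

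**Figure D4:**
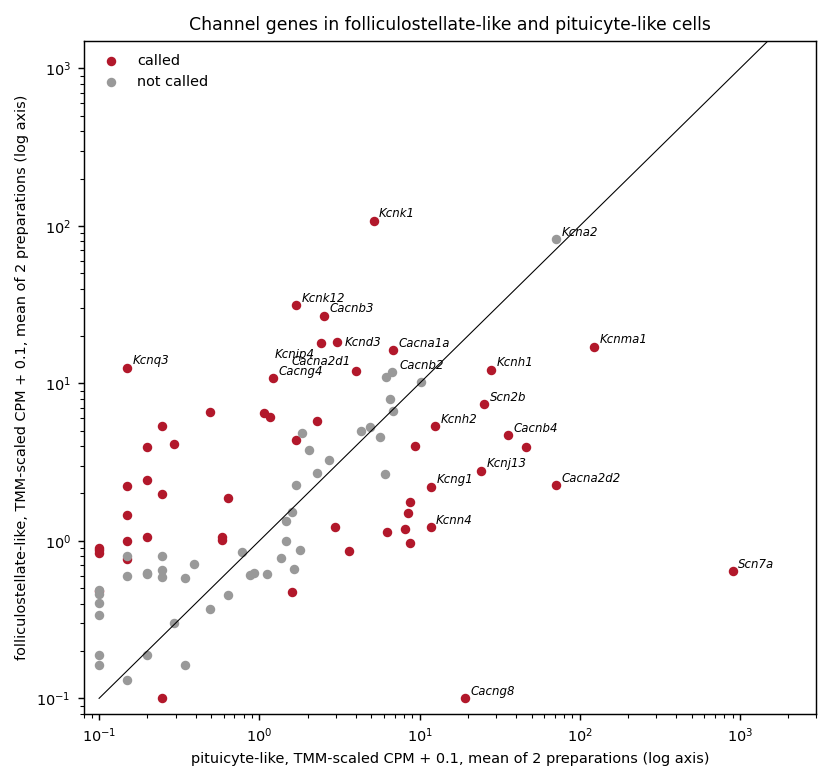
Level of each channel gene in pituicyte-like cells (horizontal) and folliculostellate-like cells (vertical), as TMM-scaled CPM plus 0.1, mean of 2 preparations, both axes logarithmic. Scn7a and Kcnma1 lie toward pituicyte-like cells, Kcnk1 and Kcnk12 toward folliculostellate-like cells, and Kcna2 near the diagonal.

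In endothelial-like cells 39 members were called against the other non-endocrine classes, 18 higher and 21 lower, where 27.5% of all genes were called, 16.7% higher and 10.8% lower. Of 9 tested inward rectifiers 5 were higher and none was lower, but Kcnj2, Kcnj8, Kcnj9, Kcnj11, Kcnj13 and Kcnj15 could not be called lower. Each had another non-endocrine class at 0 UMIs in both preparations. Kcnq1 (7.75 ± 0.49 log2) and Kcnj15 (7.43 ± 0.61) had adjusted p of 1.56e-11 and 2.98e-08 by edgeR. The counts do not resolve the size of these differences in endothelial-like cells, because Kcnq1 and Kcnj15 both had such a 0. Markers of red cells summed to 5740 and 10805 CPM in this class, against at most 778 in any other class, and fibroblast markers to 1484 and 432 CPM; their part in the members' values was not tested. In fibroblast-like cells 17 were called, 15 higher and 2 lower, where 14.5% of all genes were called, 11.4% higher and 3.09% lower, among them Kcnj8 (8.76 ± 0.35), Cacna2d1 (2.23 ± 0.27) and Cacnb3. For Kcnj8 another non-endocrine class was at 0 UMIs, so the counts do not resolve the size of its difference. Macrophage-like cells had 33 members called, 13 higher and 20 lower, where 33.8% of all genes were called, 16.1% higher and 17.7% lower, so the share of members lay near that of all genes. Kcnk13 (6.74 ± 0.36 log2), Kcng2 (6.62 ± 0.31) and Kcnn4 (4.53 ± 0.26) were the higher ones that reached 20 CPM, and all 3 calcium channel beta subunits that were called were lower. Pomc was at 10029.5 CPM in the dissected macrophage-like sum and 488 in the whole-gland one, so hormone RNA in this class differed between preparations, and its part in the members' values was not tested.

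The preparations gave close levels for most members. Among members with at least 50 UMIs in a class, the median absolute log2 ratio of the dissected to the whole-gland level was between 0.16 and 0.54 over the classes. Members over 2-fold included Kcnc2 in corticotroph-like, Kcnf1 in melanotroph-like, Cacna1e in gonadotroph-like, Kcnv1 in pituicyte-like, Scn7a in endothelial-like and Kcne4 and Kcnk2 in fibroblast-like cells. Single libraries were compared in the 8 classes other than melanotroph-, pituicyte- and thyrotroph-like cells. Between the lanes of the whole-gland suspension the ratio passed 2-fold for 0 members in these 8 classes. Only 1, 3 and 4 members could be compared there in fibroblast-, macrophage- and endothelial-like cells. Between the anterior and posterior libraries it passed 2-fold for 7 members in folliculostellate-like cells (median absolute log2 ratio 0.61), with Kcnq5, Kcnrg and Scn4b higher in the posterior library and Cacna1g, Kcnip3, Kcnj3 and Scn3b lower. It also did so for Kcnj15 (higher in posterior) and Kcnj3 (lower) in endothelial-like cells (median 0.82 over only 5 members). In fibroblast-like cells it did so for Kcne4 and Kcnk2, both higher (median 2.05 over only 3 members). The others were Scn7a (higher) and Cacna1g (lower) in lactotroph-like cells and Cacna1e (lower) in gonadotroph-like cells. The dissected endothelial- and fibroblast-like sums hold cells of both libraries.

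Genes outside the name rule that work with these channels showed other splits between hormone and non-endocrine cells, against the same 14.0% higher and 19.9% lower of all genes. Of 19 tested channel partners, 7 were called higher in hormone cells and 2 lower. Dpp6 and Dpp10, transmembrane partners of Kv4 channels, were higher by 4.20 and 4.28 on the log2 scale. Of 23 tested leak, TRP and other cation channels 4 were higher and 10 lower: the leak channel Nalcn (1.99) and its subunits Unc79 (3.09) and Unc80 (3.28) were higher with Trpc1 (1.03). Pkd2, Trpm7 and Trpm3 had the highest levels on that list. Of 17 tested chloride channels 2 were higher (Clcn3, 2.03, and Clcn4, 2.57) and 7 lower, and Clic1, Clic4 and Clcn3 had the highest levels. Of 20 tested genes of calcium stores, pumps and exchangers 6 were higher and 5 lower, led in level by Atp2b1, Atp2a2 and Atp2b4, and of 11 tested sodium-potassium pump genes 1 was higher and 5 lower, with Atp1b1 and Atp1b3 among those at the highest levels.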

How the data were processed

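Single-cell libraries were 4, from pooled female rat pituitaries. The deposited values are raw UMI counts per gene and cell barcode; per the submitters' processing notes Cell Ranger 3.1 was used, and the genome build and annotation are not given in the sources used here. The members and gene lists were chosen with earlier results of these data known.

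The limits per barcode were 1000 UMIs or more, 500 genes or more and no more than 20% of UMIs from mitochondrial genes, which left 5666 anterior, 3936 posterior, 5714 and 5065 whole-gland barcodes. Scrublet scores over 0.25 marked doublets. Cells were clustered with scanpy 1.11.5 (2000 variable genes, 30 components, 15 neighbors, Leiden resolution 1.0) without 257 channel and related genes. Of 26 clusters, 23 were named from markers. UMIs were summed per class and preparation: dissected hormone and folliculostellate-like sums came from the anterior library, melanotroph- and pituicyte-like sums from the posterior, and the rest from both. Sums held 789150 to 56801248 UMIs. Sums of 10 classes (20 sums, 9 residual degrees of freedom) were tested with edgeR 4.0.16 in R 4.3.3 (TMM, filterByExpr, class and preparation terms). The preparation term is the replicate block: both lobes of 1 preparation come from the same pooled glands. Levels by library were scaled separately from levels by preparation. The test was tested on simulated data for the hormone against non-endocrine comparison, with 7298 genes where the fit itself held 15277. Calls were made for all 100 genes with a 4-fold change, but for only 44 of the 100 set at the 2-fold limit itself. The same was not tested for the channel genes, of which 41 had a class at 0 UMIs in this comparison. Intervals and floors of 3 counts cover counting error only. Standard errors (SE) were calculated back from each edgeR test, as the absolute log2 fold change over the square root of its F value. They are not fitted standard errors. Named members were, in each comparison and direction, the 6 called with the largest log2 fold change among those at 20 CPM or more in both preparations of a class, the 3 with the most UMIs per role, and a list of well-studied channels; a few others were chosen after their values were seen. Some items are not reported here. Alternatives were DESeq2 1.42.0 (the test and its size factors), limma-voom (limma 3.58.1), no filter, a mitochondrial limit of 10%, doublets kept, Leiden resolution 2.0, dissected sums over both libraries, no preparation term, thyrotroph-like sums added, thinned sums, and each library left out.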

Additional observations from a re-analysis of the deposited data

How the results depend on the processing

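For the members named in the comparisons, 124 results were recomputed under each alternative that could be fitted, giving 1610 values, of which 1519 kept their direction and side of the threshold, 88 kept the direction only and 3 reversed, none of them past the threshold. Over the fits that leave out 1 library, Scn7a in hormone cells ran from -1.54 to 0.34 (log2) and Kcng2 in folliculostellate-like cells from -3.96 to 0.58, the highest of each being without the posterior library, and with at most 10% mitochondrial UMIs Kcng2 in pituicyte-like cells was at 1.12; these rest on fewer sums. Of the counts of members called, 182 stayed within 1.5 times and 15 did not. Over the 4 fits that each leave out 1 library, the count ran from 25 to 45 for lactotroph-like, 19 to 35 for corticotroph-like, 15 to 38 for melanotroph-like, 29 to 43 for gonadotroph-like, 25 to 32 for endothelial-like, 26 to 37 for folliculostellate-like, 21 to 33 for macrophage-like and 25 to 52 for pituicyte-like cells, 27 to 55 between folliculostellate- and pituicyte-like cells, and 9 to 31 between melanotroph- and corticotroph-like cells. Without the anterior library counts fell to 25 (lactotroph-like), 19 (corticotroph-like), 15 (melanotroph-like), 29 (gonadotroph-like), 25 (endothelial-like) and 26 (folliculostellate-like), and without the posterior library to 19 (melanotroph-like), 21 (macrophage-like) and 25 (pituicyte-like). With at most 10% mitochondrial UMIs 17 members were called in pituicyte-like cells and 22 between folliculostellate- and pituicyte-like cells. Without the replicate block the count between hormone and non-endocrine cells stayed at 64, and all such counts moved by less than 1.5 times. Thinned to 530526 UMIs per sum, 58 members had the same highest class in both preparations, against 81. Depth limits the smaller classes: with thyrotroph-, fibroblast- and macrophage-like cells, 5 or 6 members had 50 UMIs.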

Other observations

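Members also differed within classes, between clusters of cells that share a class name. Among the 3 folliculostellate-like clusters, Kcnk1 was at 220 CPM in 1 and at 18.9 and 20.9 in the other two, while Kcnip4 ran the other way at 4.99 against 27.4 and 20.4 and Kcnq3 at 3.89 against 20.4 and 8.74. Kcnd3 was at 27.9 CPM in the cluster with the most Kcnk1 and at 8.63 and 12.8 in the others, and Kcna2 was at 65.3 against 91.5 and 81.6. In endothelial-like cells Kcnj3 was at 32.2 CPM in the larger cluster and at 0.487 (1 UMI) in the smaller, which holds 201 posterior cells of 242. Kcnn4 was at 51.0 CPM in the larger macrophage-like cluster and 6.26 in the smaller, of which 192 of 282 cells were posterior. These values come from cells pooled over libraries and carry no test.

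The Schwann-like cluster held the glial inward rectifiers. Kcnj10 was at 71.1 and 49.7 CPM there (27 and 7 UMIs) and Kcnj16 at 60.6 and 28.4 (23 and 4 UMIs). The BK subunit Kcnmb4 was at 60.6 and 78.1.

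Among the clusters left without a name, the cluster led by cell cycle genes had Kcnk1 at 44.0 CPM, Cacnb3 at 35.3, Cacna2d1 at 28.3 and Kcnk12 at 27.0.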
